A study of Mus musculus with 5 samples.

Results

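The 7 genes described here are 3 Notch receptors (Notch1, Notch2 and Notch3), the ligand Jag1, and 3 transcriptional targets of the pathway (Hes1, Hey1 and Heyl), matched by exact symbol among the 28001 genes of the deposited gene list. They were chosen by function, and not by their values. Their unique molecular identifiers (UMIs, each standing for a captured transcript molecule) were read in 5 droplet single-cell libraries, in 3 classes of cells. A cell was a tenocyte (tendon cell) when Tnmd, Fmod, Kera and Chad together reached 5 UMIs. A cell was mural (a pericyte or vascular smooth muscle cell of the vessel wall) when Rgs5, Kcnj8, Abcc9 and Higd1b together did. All remaining cells formed the rest. The class markers followed the names: 12 mural markers, 4 of which set the class, summed to 9415 to 29856 CPM (UMIs per 1e6 UMIs of the class) in mural cells and 167 to 706 CPM in the rest, and 8 tenocyte markers, also including the 4 that set the class, to 7395 to 26926 CPM in tenocytes and 84.7 to 474 CPM in the rest. The progenitor genes Pdgfra, Dcn, Col1a1, Ly6a, Cd34, Hic1 and Lum summed to 10499 to 32155 CPM in the rest. They were lower in mural cells, at 3305 to 7843 CPM, but higher in tenocytes in all 5 libraries, at 16315 to 36141 CPM. As a sum, these genes thus set the rest apart from mural cells and not from tenocytes. Single genes differed from the sum. Pdgfra, Cd34, Ly6a and Hic1 were lower in tenocytes than in the rest in all 5 libraries, and Col1a1 was higher in all 5. Quiescent Pdgfra, for one, was at 35.6 CPM in tenocytes and 318 CPM in the rest. Hic1 was higher in mural cells than in the rest in all 5 libraries (71.2 against 37.8 CPM in quiescent cells).

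All mice were C57BL/6J of genotype Hic1CreERT2/CreERT2;Rosa26LSLtdTomato/+. Each was given 2.5 mg of tamoxifen in 100 uL of sunflower oil on each of 5 days at 8 weeks of age, followed by 10 days without drug. Cells were sorted from whole hindlimb muscle and are labelled mesenchymal progenitors. The groups were a quiescent library and libraries from 1, 2, 4 and 14 days after injury with notexin, a snake venom toxin that destroys myofibres. Each group had 1 library, so no test between conditions was possible and none is given. The tdTomato label is switched on only in cells in which the Hic1 gene drove the Cre recombinase, and in their descendants, so other cells of the muscle are largely outside these data. The number of animals behind a library is not given in the sources used here.

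Notch is a receptor that is cleaved when a ligand on a neighbouring cell binds it. The freed intracellular piece joins the DNA-binding protein RBPJ in the nucleus and switches on repressors of the Hes and Hey families. In vessel walls Notch3 is the receptor typical of mural cells, and Jag1, carried by endothelial and mural cells, is a ligand for it. In muscle the pathway is also known for keeping stem cells quiescent.

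After cells with under 500 genes or over 10% mitochondrial UMIs were left out, 2138 quiescent, 4816 day 1, 2549 day 2, 4107 day 4 and 3475 day 14 cells remained, with 8011891 to 44539781 UMIs a library. The mural class held 112, 97, 42, 114 and 243 cells in time order, the tenocyte class 126, 183, 99, 182 and 804, and the rest 1900, 4536, 2407, 3810 and 2424. A further 6 cells passed both class limits and were set aside. Mural cells were shallow, with a median of 1427, 3028, 5410, 4059 and 2786 UMIs against 3883, 8787.5, 11165, 7071.5 and 4937.5 in the rest. The libraries shared 154 cell barcodes. All intervals in parentheses are 95% intervals and cover counting error only, not differences between animals, sorts or library preparations.

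**Figure D1:**
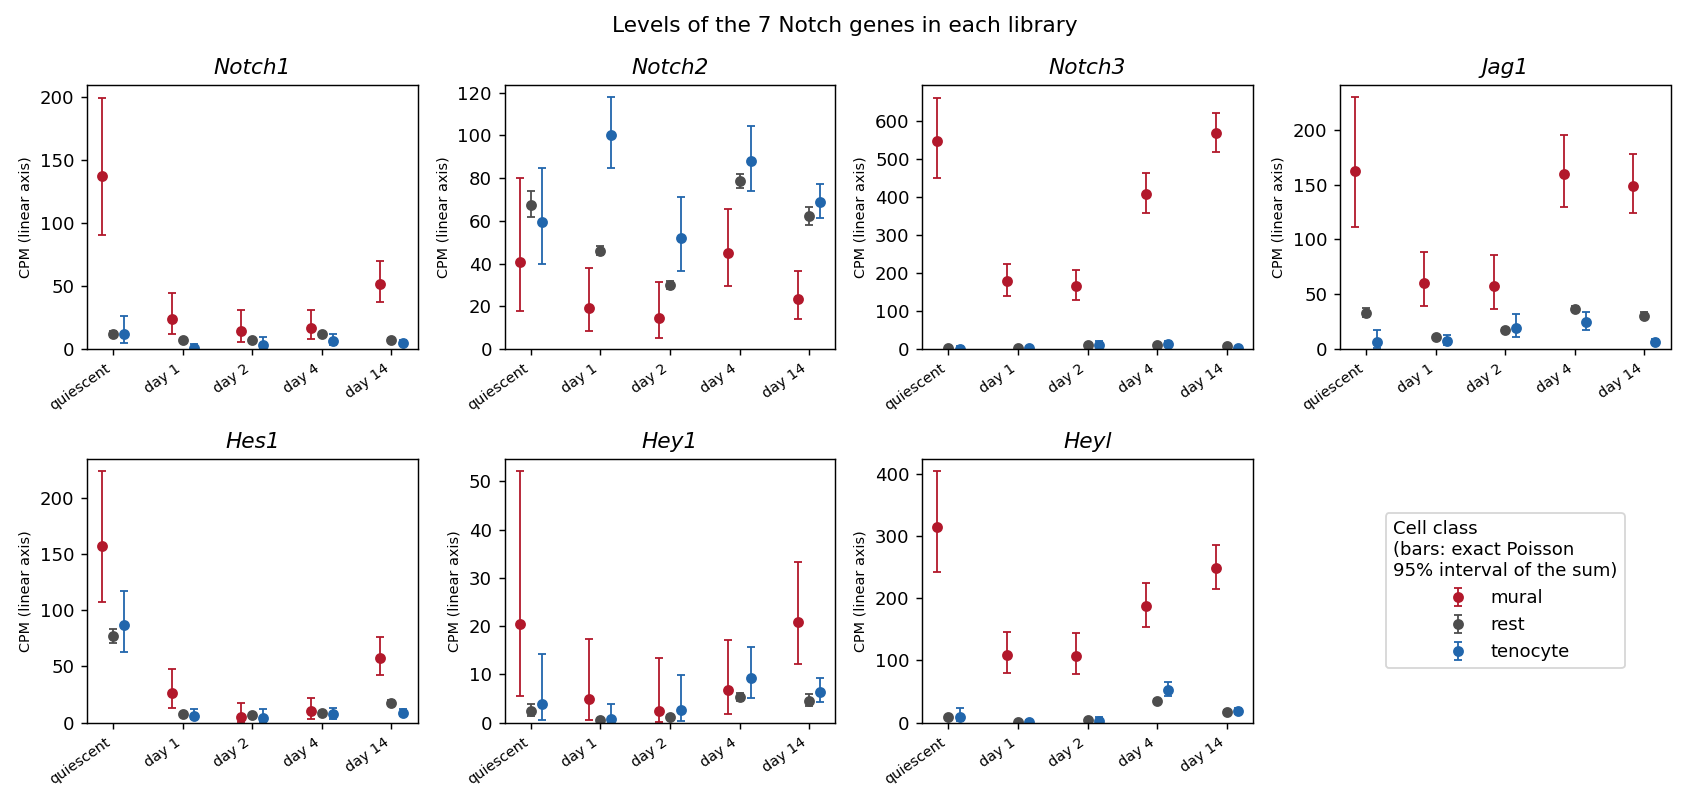
Level of each gene (y axis, CPM, linear and starting at 0) in the 5 libraries (x axis) for mural cells, rest cells and tenocytes. Points are summed UMIs over summed depth and bars the exact Poisson 95% interval. Notch3 and Heyl stand highest in mural cells in all 5 libraries, and Hes1 is high in the quiescent library in all 3 classes.

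Among the receptors, Notch3 had a far higher level in mural cells than in the other classes, although in the day 2 and day 4 libraries most of its UMIs (286 against 69, and 344 against 245) came from the much larger rest. Its level in mural cells was 549 CPM (450 to 663) in the quiescent library, 178 CPM (140 to 224) at day 1, 165 CPM (129 to 209) at day 2, 408 CPM (359 to 463) at day 4 and 569 CPM (518 to 623) at day 14. In the rest it was 2.60, 1.15, 9.04, 11.4 and 7.31 CPM. No interval of a mural library reached those of the rest, and the mural level was 211-fold (129 to 364), 155-fold (107 to 228), 18.3-fold (13.9 to 23.9), 35.7-fold (30.2 to 42.2) and 77.8-fold (62.0 to 98.5) higher. At least 1 Notch3 UMI was seen in 57.1%, 52.6%, 76.2%, 86.0% and 78.6% of mural cells, against 0.895%, 1.06%, 8.48%, 7.48% and 3.22% of the deeper rest cells. With every cell thinned to 1500 UMIs, which left 47, 97, 42, 114 and 226 mural and 1786, 4536, 2407, 3810 and 2366 rest cells, the mural shares were 57.4%, 28.9%, 33.3%, 43.0% and 57.1% and the rest shares 0.728%, 0.110%, 1.20%, 1.55% and 1.23%. In tenocytes 0 of 126 quiescent cells had a Notch3 UMI, at a median of 3690 UMIs a cell, which by the limit of 3 counts allows a share of cells with a UMI of up to 2.38%, and the later levels were 1.38, 9.54, 12.6 and 1.42 CPM.

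Within mural cells the quiescent and day 14 levels of Notch3 did not differ beyond counting error (ratio 1.04, 0.84 to 1.29), nor did those of day 1 and day 2. Day 4 lay between, below the quiescent level by 1.34-fold (1.06 to 1.69). Day 1 was 3.08-fold and day 2 3.32-fold below the quiescent level. Summed, the 12 mural markers were also low at those times. The sum was 24109 CPM in quiescent mural cells, 11074 CPM at day 1 and 9415 CPM at day 2. It was 22509 CPM at day 4 and 29856 CPM at day 14. Not every marker followed the sum. Acta2 (2018 CPM quiescent, 3316 CPM at day 1, 2360 CPM at day 2) and Mcam (198, 248 and 266 CPM) were above quiescent at both days. Des was at 330, 533 and 117 CPM, and the other markers were below quiescent at both days. Rgs5, one of the genes that define the class, was at 10891, 2926, 3043, 10583 and 13492 CPM. The progenitor genes in the mural class summed to 3788, 3702, 7843, 6534 and 3305 CPM, and the part of such a change in mural makeup in the Notch3 levels was not tested.

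In the rest the order of Notch3 levels was another. Day 4 was highest, 4.40-fold (2.78 to 7.40) above quiescent, and day 2 was 3.48-fold (2.19 to 5.86) and day 14 2.81-fold (1.70 to 4.88) above it, while day 1 was lowest. With cells thinned to 1500 UMIs the log2 ratios to quiescent were smaller, at 0.93 for day 4 (1.79 without thinning), 0.62 for day 2 (1.48) and 0.69 for day 14 (1.21). These levels lay under the 20 CPM needed for a call (below). In rest cells without a UMI of the 4 mural genes, Notch3 was at 1.99, 1.07, 8.91, 11.3 and 6.70 CPM in time order, and in the few rest cells with such a UMI at 19.1, 6.62, 11.0, 13.7 and 14.6 CPM. The cells without held 317 of the 344 day 4 UMIs and were 3600 of 3810 cells.

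Notch1 was also highest in mural cells before injury, at 137 CPM (90.5 to 200), and stood at 24.1, 14.4 and 16.7 CPM at days 1, 2 and 4 and at 51.4 CPM at day 14. In the rest it was 11.6, 6.75, 6.89, 11.7 and 6.99 CPM and in tenocytes 11.9, 0.692, 2.73, 6.63 and 4.74 CPM. The mural level exceeded the rest 11.8-fold (7.36 to 18.4) in the quiescent library (log2 3.45, and 2.69 with cells thinned to 1500 UMIs), 3.57-fold (1.69 to 6.66) at day 1 and 7.35-fold (4.96 to 10.7) at day 14. At days 2 and 4 the intervals of the ratio, 0.76 to 4.62 and 0.68 to 2.66, held 1. The 6 to 10 mural UMIs behind each of the days 1, 2 and 4 do not separate those levels from each other.

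Notch2 showed the opposite preference. Its level in the rest was 67.6, 46.1, 29.9, 78.5 and 62.2 CPM, and in tenocytes 59.3, 100.3, 51.8, 88.2 and 68.9 CPM. In mural cells it was 40.7, 19.3, 14.4, 45.0 and 23.2 CPM, from 6 to 27 UMIs a library. The mural point estimate was below the rest in all 5 libraries, by 1.66-fold, 2.39-fold, 2.08-fold, 1.74-fold and 2.67-fold, and the interval left out 1 at days 1, 4 and 14. By summed UMIs tenocytes were 2.18-fold (1.83 to 2.58) above the rest at day 1 and 1.73-fold (1.22 to 2.40) at day 2. The day 1 excess did not show in the share of cells: the 145 tenocyte UMIs came from 45 of 183 cells, 24.6% against 26.0% of the rest, and at 1500 UMIs a cell 8.20% (4.66 to 13.2) against 7.25%. Nor did the day 2 excess, whose 38 UMIs came from 24 of 99 tenocytes, 24.2% against 23.6% of the rest. At 1500 UMIs a cell the day 2 shares were 5.05% (1.66 to 11.4) and 4.40%. In the rest, day 2 was lowest, 2.26-fold below quiescent, and only quiescent and day 14 were neighbours that counting error did not separate.

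Jag1, the membrane-bound ligand, was in all 3 classes and highest in mural cells. Mural levels were 163 CPM (111 to 230), 60.3 CPM (39.0 to 88.9), 57.5 CPM (36.8 to 85.6), 160.1 CPM (130 to 195) and 149 CPM (124 to 178) in time order, against 33.0, 11.2, 17.3, 36.6 and 30.2 CPM in the rest. The mural excess over the rest, whose intervals overlapped in all 5 libraries, was 4.93-fold (3.30 to 7.15), 5.38-fold (3.45 to 8.04), 3.31-fold (2.11 to 4.98), 4.37-fold (3.51 to 5.39) and 4.94-fold (4.00 to 6.08). In tenocytes it was low in quiescent cells, at 5.93 CPM (1.22 to 17.3) from only 3 UMIs. Day 14 tenocytes had 6.39 CPM (4.21 to 9.30) from 27 UMIs. These levels are 5.56-fold and 4.72-fold below the rest of the same library. At days 1, 2 and 4 tenocytes had 6.92, 19.1 and 24.5 CPM.

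Ligand and receptor were also counted in the same mural cells, without a correction for free RNA. Of the mural cells with a Jag1 UMI, 18 of 25 quiescent, 7 of 20 day 1, 13 of 15 day 2, 42 of 52 day 4 and 72 of 87 day 14 cells also had a Notch3 UMI. Among all mural cells the counts with a Notch3 UMI were 64 of 112, 51 of 97, 32 of 42, 98 of 114 and 191 of 243. At day 1 the share was lower in cells with Jag1, but those were only 20 cells. No interval was computed for these shares, and cells were not matched for depth. Splitting the mural class by Myh11, a smooth muscle myosin, left Notch3, Jag1 and Heyl on both sides: at day 14, cells with a Myh11 UMI had 633, 135 and 201 CPM and cells without 475, 170.4 and 317 CPM. At day 2 the 3 genes had 247, 98.8 and 160.5 CPM with Myh11 and 114, 31.3 and 74.4 CPM without. This split was chosen after values were seen. The 21 day 2 mural cells without Myh11 had a median of 10554 UMIs against 4663 in the 21 with it, and doublets were not called.

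The region before the start of Notch3 is shown because that gene had the highest mural excess of the receptors in each library. The table of promoters used here (RefSeq, GRCm38.p6) matched 4 of the 7 genes, among them Notch3 (gene at chr17:32120820-32166852, minus strand, GENCODE M21) and Jag1 (chr2:137081456-137116644, minus strand). Given are the 250 bases before the RefSeq start of Notch3, chr17:32166891-32167140, on the strand of the gene. They lie wholly before the GENCODE gene as well.
Notch3: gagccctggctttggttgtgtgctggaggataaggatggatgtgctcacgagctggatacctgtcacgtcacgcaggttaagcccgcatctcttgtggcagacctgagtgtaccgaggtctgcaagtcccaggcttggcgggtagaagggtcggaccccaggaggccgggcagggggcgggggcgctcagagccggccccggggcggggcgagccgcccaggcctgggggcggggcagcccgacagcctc
Neither this window nor that of Jag1 (chr2:137116521-137116770, part of which lies inside the GENCODE gene, whose start differs) held TGGGAA, the core of the RBPJ motif, or the E-box CACGTG on either strand, so no letters are in capitals. Of all 32851 windows of this length, 21.6% held TGGGAA and 6.02% CACGTG. The absence says only that these letters are not in these bases.

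**Figure D2:**
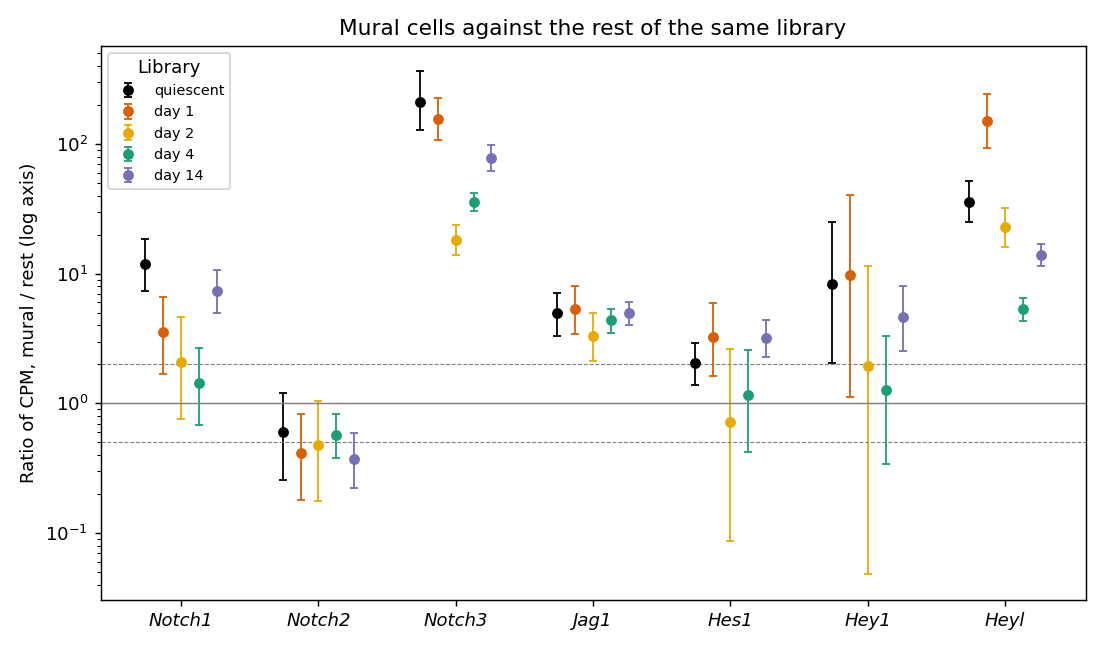
Ratio of the level in mural cells to that in the rest of the same library (y axis, log scale) for each gene (x axis) and library (colours). Bars are exact 95% intervals, the solid line marks equality and dashed lines 2-fold. Notch3, Jag1 and Heyl lie above 2-fold in all 5 libraries and Notch2 below equality.

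Of the targets, Heyl, a repressor of the Hey family, followed Notch3 in mural cells. Its mural level was 315 CPM (242 to 404), 108 CPM (79.1 to 145), 108 CPM (78.7 to 144), 187 CPM (154 to 225) and 248 CPM (215 to 285) in time order. In the rest it was 8.76, 0.726, 4.71, 35.1 and 17.7 CPM and in tenocytes 9.88, 1.38, 2.73, 53.1 and 18.2 CPM. The mural excess over the rest was 36.0-fold (24.97 to 51.9), 149-fold (92.4 to 244), 22.9-fold (16.03 to 32.2), 5.33-fold (4.34 to 6.48) and 14.0-fold (11.5 to 17.0). The smallest excess, at day 4, came with the highest level in the rest, which was 4.00-fold (3.11 to 5.24) above quiescent. Each neighbouring pair in the order day 4, day 14, quiescent, day 2, day 1 differed in the rest beyond counting error. In tenocytes day 4 was 5.37-fold (2.21 to 17.0) above quiescent.

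Hes1, a repressor known to respond to Notch and to other signals, was high before injury in every class and low afterwards. In the rest it was 76.9 CPM (70.7 to 83.5) in quiescent cells, 8.08, 6.67 and 8.62 CPM at days 1, 2 and 4, and 17.9 CPM (15.6 to 20.4) at day 14. Tenocytes had 87.0, 6.23, 4.09, 7.30 and 8.76 CPM and mural cells 158, 26.5, 4.79, 10.0 and 57.5 CPM. The rest was 9.51-fold (8.30 to 10.9), 11.5-fold (9.83 to 13.6), 8.92-fold (7.69 to 10.4) and 4.29-fold (3.67 to 5.04) below quiescent at days 1, 2, 4 and 14. Day 14 was thus still below quiescent in the rest, in tenocytes by 9.93-fold (6.26 to 15.8) and in mural cells by 2.74-fold (1.68 to 4.41). Cells with a Hes1 UMI made up 21.9% of quiescent rest cells and 6.06%, 7.10%, 6.04% and 8.25% later, and at 1500 UMIs a cell 9.57%, 1.48%, 1.25%, 1.10% and 2.92%.

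Isolating cells from tissue can itself switch on early response genes, so these are given beside Hes1. The 12 listed (Fos, Fosb, Jun, Junb, Jund, Egr1, Ier2, Ier3, Atf3, Btg2, Zfp36 and Dusp1) summed to 9218, 4746, 5130, 5279 and 6845 CPM in the rest, 10702, 11918, 6829, 4375 and 5408 CPM in mural cells and 13132, 9035, 10378, 6766 and 11123 CPM in tenocytes. All 12 had UMIs in all 15 class sums, and the quiescent sum was the highest in the rest and in tenocytes but not in mural cells, where day 1 was higher. Jund, an AP-1 subunit, was at 234, 33.4, 20.5, 34.3 and 157 CPM in the rest, and Fos, another, at 2649, 1460, 2568, 2561 and 2120 CPM. The part of these genes, or of handling, in the Hes1 levels was not tested.

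**Figure D3:**
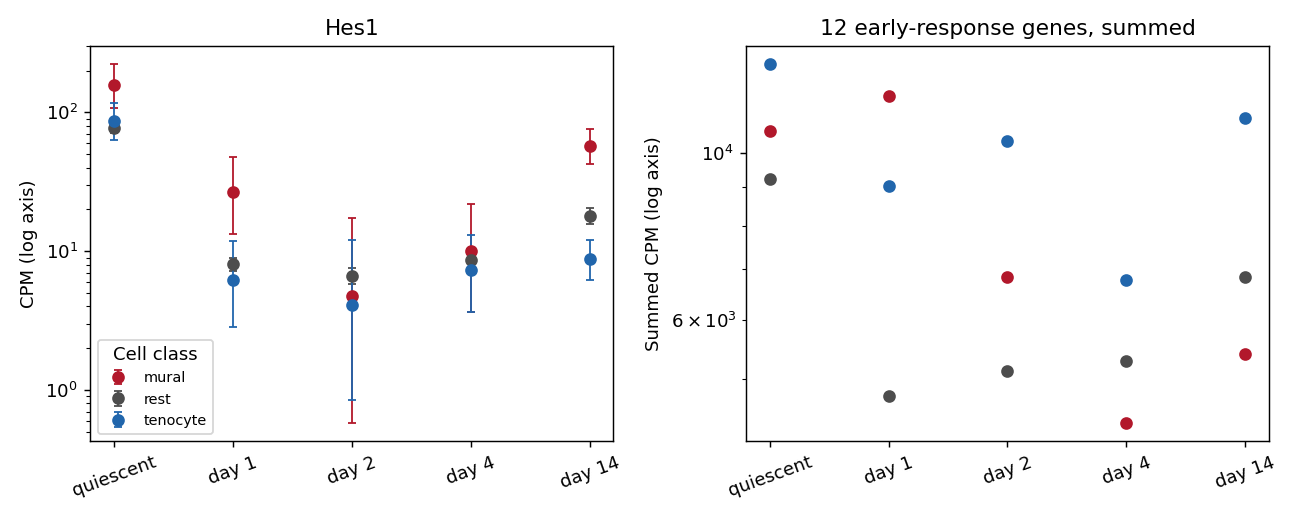
Left, level of Hes1 (y axis, CPM, log scale, bars exact 95% intervals) and right, summed level of the 12 early response genes (y axis, CPM, log scale), by library (x axis) and cell class. In the rest Hes1 was 9.51-fold lower at day 1 than in quiescent cells, while the early response sum was 4746 against 9218 CPM.

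Hey1, the other Hey family member, was sparse. It had 18, 21, 39, 157 and 56 UMIs in the rest, which is 2.46, 0.492, 1.23, 5.22 and 4.497 CPM. In mural cells it had 4, 2, 1, 4 and 17 UMIs and in tenocytes 2, 1, 2, 14 and 27. Day 4 and day 14 rest cells were 2.12-fold (1.30 to 3.67) and 1.83-fold (1.06 to 3.30) above quiescent, and day 14 mural cells 4.62-fold (2.52 to 8.07) above the rest, with 6.996% of mural cells and 2.19% of rest cells holding a UMI. At 1500 UMIs a cell the Hey1 shares of the rest were 0.504% quiescent, 0.551% at day 4 and 0.888% at day 14, and the log2 ratio of day 4 to quiescent was 0.20 in place of 0.85. Among its mural levels no neighbours in order differed beyond counting error.

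A call was then made for every gene of the list. A gene was tested where the higher group had at least 20 CPM and 10 UMIs, and called where the levels differed at least 2-fold. In the rest at day 1 none of the 3 members tested was called higher, against 15.5% of 6045 genes tested, and Jag1 and Hes1 were called lower, against 24.3%. At day 2 none of 3 was higher (11.3% of 6074 genes) and Notch2 and Hes1 were lower (17.4%). At day 4, of 4 tested, Heyl was higher (6.34% of 5945 genes) and Hes1 lower (9.92%). At day 14 none of 3 was higher (1.04% of 5757 genes) and Hes1 was lower (0.643%). At days 1 and 2 many genes were called, so membership among them is common. At day 14 only 37 genes were called lower, and by fold Hes1 ranked 3 among them. The calls of Jag1 at day 1 and of Notch2 at day 2 were lost with cells thinned to 1500 UMIs, and that of Notch2 also with TMM factors, which scale libraries by a trimmed mean of gene ratios. Hes1 ranked 7 of 590 at day 4, 17 of 1055 at day 2 and 78 of 1470 at day 1.

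In mural cells against the rest, 4 members could be tested in all 5 libraries. Notch3, Jag1 and Heyl were called higher in all 5, against 5.76% of 3960 genes, and none was called lower in all 5, against 0.808%. All genes were tested by the same rule, which asks for the minimum only in the higher group. Notch3 in all 5 libraries, Heyl in all but day 4 and Jag1 at days 1 and 2 met the minimum of CPM only in mural cells. The members tested were thus partly chosen by a high mural level, and their share beside 5.76% is a description only. With cells thinned to 1500 UMIs, Jag1 no longer met the minimum of UMIs or CPM in all 5, while its log2 ratios, 1.33 to 2.62, stayed above 2-fold. In tenocytes against the rest only Notch2 could be tested in all 5, and it was called in neither direction in all 5, against 1.79% of 4291 genes higher and 1.70% lower. Notch1, Notch3, Hey1 and, except at day 4, Heyl were too low in the rest for a call between days.

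**Figure D4:**
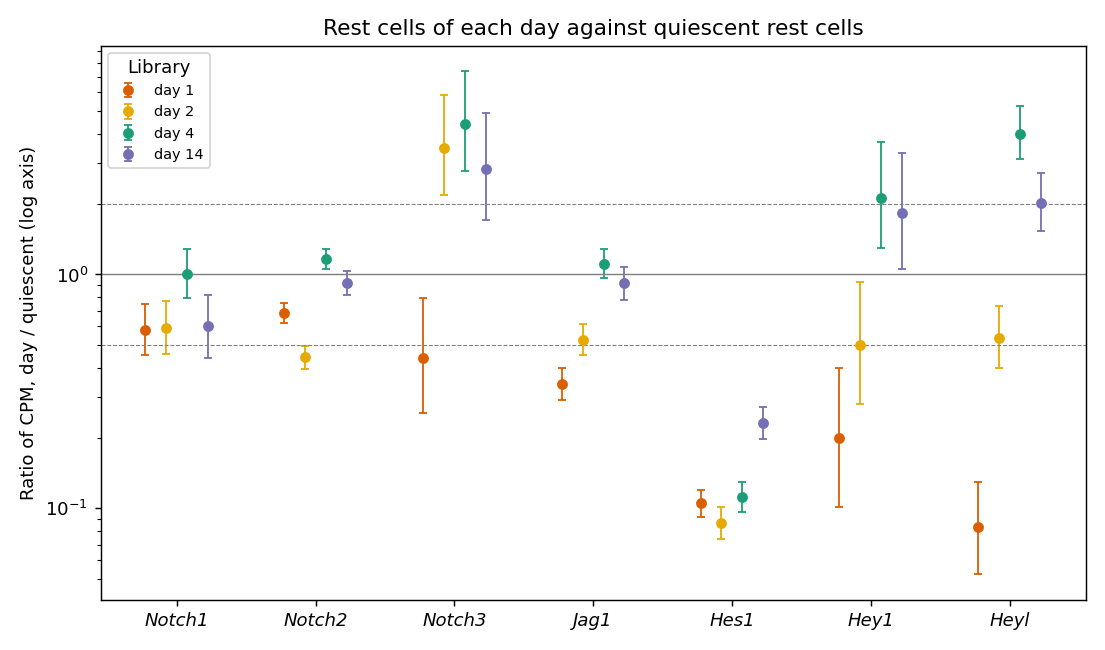
Ratio of the level in rest cells at each day to that in quiescent rest cells (y axis, log scale) for each gene (x axis), with exact 95% intervals. Hes1 lies under the dashed 2-fold line at all 4 days, and Heyl runs from 12.1-fold below quiescent at day 1 to 4.00-fold above it at day 4.

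The other genes of the pathway were read from a list of 53 symbols, of which 52 were in the gene list. The other, Tle5, is a newer symbol of Aes, which was found. In the rest, 21 could be tested at days 1, 2 and 4 and 23 at day 14. At day 1, 8 were called lower (24.3% of all genes tested) and 0 higher (15.5%). They were the ubiquitin ligases Itch (15.9 against 52.5 CPM) and Dtx3 (28.3 against 69.8 CPM), the Numb relative Numbl (12.2 against 32.6 CPM), the presenilin Psen2 (15.3 against 34.5 CPM), the coactivator Maml2 (6.42 against 20.5 CPM), and the corepressors Aes, Ncor1 and Tle3. At day 2, 3 of 21 were called lower, among them Itch (20.8 CPM) and Numbl (14.7 CPM), and none was called higher (17.4% and 11.3% of all genes tested). No pathway gene was called at days 4 and 14. The median log2 ratio of those tested was -0.67, -0.37, -0.06 and 0.07 in time order, beside -0.15, -0.03, 0.02 and -0.01 for all genes tested.

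In mural cells against the rest, 13 pathway genes could be tested in all 5 libraries and Dtx3, a Deltex family ubiquitin ligase, was called higher in all 5, which as 1 of 13 is near the 5.76% of all genes. Its mural level was 636, 186, 211, 248 and 668 CPM against 69.8, 28.3, 43.6, 86.1 and 99.3 CPM in the rest. Nrarp, a feedback inhibitor and Notch target, was found almost only in mural cells, with 7, 3, 6, 2 and 21 UMIs there, 0, 0, 1, 3 and 0 in the much larger rest and 0 in tenocytes. At day 14 the mural level was 107-fold above what 3 UMIs in the rest would give, and the interval of its ratio to the rest had a lower limit of 79.3. The noncanonical ligand Dlk1 was at 177 CPM in mural cells at day 14 against 11.5 CPM in the rest. It had no UMI in quiescent mural cells, which by the limit of 3 counts allows a level of up to 15.3 CPM. The canonical ligand Jag2 and the target Hes5 had no UMI in any class, and the ligand Dll4 had 1 UMI in mural cells and 3 in the rest over all libraries.

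Vessel lining cells also express Notch genes and Jag1, so endothelial markers were read beside them. The 8 markers summed to 7.23 to 30.5 CPM in mural cells and 8.78 to 31.7 CPM in the rest. Pecam1 had 3, 3, 4, 7 and 10 UMIs in mural cells in time order, and Emcn, Egfl7 and Vwf 0 to 4. In mural cells Cdh5 and Kdr had no UMI in the quiescent, day 1, day 2 and day 14 libraries, and Tie1 and Cldn5 none in the first 4 libraries.

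Where Heyl lay in the day 4 rest was examined with Postn and Cthrc1, genes of matrix-building fibroblasts, a split chosen after values were seen. The 1878 cells with at least 10 UMIs of the pair held 955 Heyl UMIs (48.6 CPM), and the other 1932 cells 99 (9.53 CPM), a ratio of 5.10 (4.14 to 6.33). The first set was deeper, with a median of 9682 UMIs against 5026, and 6.17% of the rest lay within 2 UMIs of the limit. In the same set Hey1 was 6.38-fold (3.54 to 12.6), Notch3 3.34-fold (2.45 to 4.64) and Notch1 2.78-fold (2.09 to 3.77) higher, whereas Notch2 was 1.94-fold lower, Jag1 1.40-fold lower and Hes1 1.44-fold lower. Taking instead cells with at least 1000 CPM of the pair gave 5.83-fold (4.61 to 7.46) for Heyl, 8.44-fold for Hey1, 3.35-fold for Notch3 and 2.86-fold for Notch1. At day 14 the 129 cells past the second limit had a median of 5441 UMIs against 4930 in the others, and Heyl was 1.96-fold (1.25 to 2.95) higher in them, whereas the ratios of Notch1 (0.17, 0.0043 to 0.98) and Notch3 (0.50, 0.10 to 1.51) rested on 1 and 3 UMIs. In the 413 day 2 cells past it, Heyl (2.29-fold, 1.58 to 3.26) and Notch3 (1.43-fold, 1.07 to 1.90) were higher, as at day 4. Jag1 (1.46-fold, 1.19 to 1.79) and Hes1 (1.46-fold, 1.04 to 2.03) were higher too, opposite to day 4. For Notch1 (1.01), Hey1 (1.28) and Notch2 (0.92) the day 2 interval held 1. At day 1 the 199 cells past the second limit had 0 Heyl UMIs and the other 4337 cells only 31. The interval of that ratio, 0 to 2.72, held 1, so the 0 does not separate the 2 sets.

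**Figure D5:**
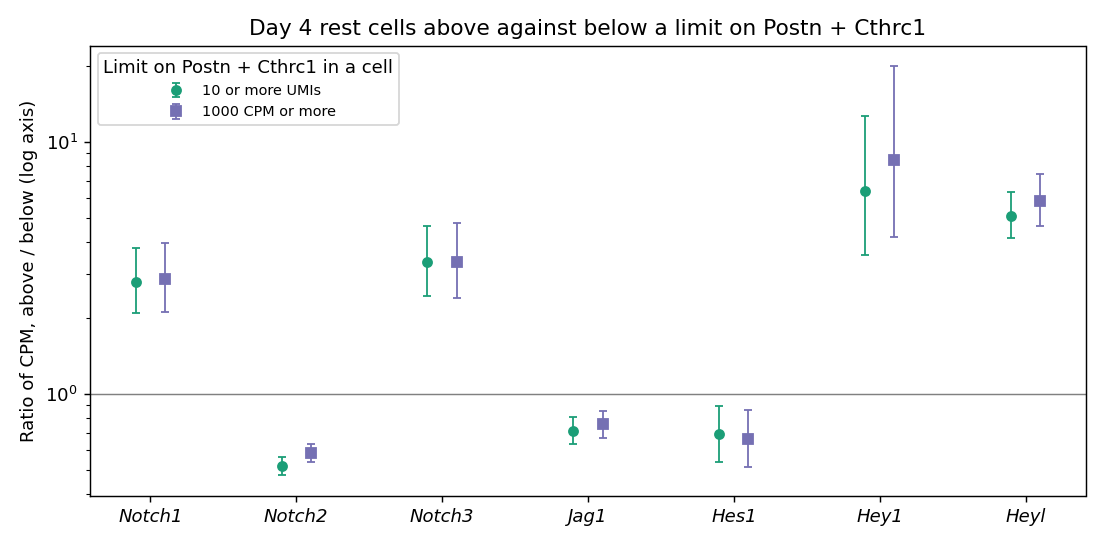
Ratio of the level in day 4 rest cells above a limit on Postn plus Cthrc1 to that in cells below it (y axis, log scale) for each gene (x axis), with the limit set at 10 UMIs (circles) or 1000 CPM (squares). Bars are exact 95% intervals. Notch1, Notch3, Hey1 and Heyl lie above equality and Notch2, Jag1 and Hes1 below it, under both limits.

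Genes with a like pattern were ranked by Pearson's r of log2(CPM + 10) over the 15 class sums, among 8590 genes. The sums share libraries and depth, so r is a description. Notch3 was closest to Gucy1a3 (0.99), Rasl12 (0.99) and Sept4 (0.99), and Heyl to the endothelin receptor gene Ednra (0.98), Foxs1 (0.97) and AW011738 (0.96). Jag1 was closest to Art3 (0.97), Enpp5 (0.96) and Slc9a3r1 (0.96), Notch1 to Lrrc8c (0.97), Pde4c (0.95) and Dock10 (0.95), and Hes1 to Klf9 (0.96), Tecpr2 (0.95) and Usmg5 (0.94). Notch2 had looser neighbours in Pmepa1 (0.91), Igf1 (0.85) and Foxp1 (0.84), as did the sparse Hey1 in Mus81 (0.92), Map4k3 (0.92) and 2010320M18Rik (0.92).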

How the data were processed

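The deposited values are raw UMI counts per gene and cell barcode, made by the authors from 10x Chromium 3' v2 libraries. Per the submitters' processing notes, Cell Ranger and the mm10 build were used, with no version named there. Cells with at least 500 genes and at most 10% mt- UMIs were kept. The UMIs of each class were summed per library (15 sums) and divided by their total. Levels carry exact Poisson 95% intervals, shares Clopper-Pearson intervals and ratios exact conditional binomial intervals (Python 3.11.15, scipy 1.17.1). Log2 ratios have 1 CPM added. Scaling alternatives used TMM factors of edgeR 4.0.16 and size factors of DESeq2 1.42.0 in R 4.3.3, with no test from either tool. Cells were thinned to 1500 UMIs without replacement. Doublets were not called. The call rule was checked on simulated counts. All 7 members are named, and for the other pathway genes those called, the 6 that differed most in a comparison, and, after values were seen, Nrarp, Jag2, Hes5 and Dll4. Classes, members and lists were chosen with earlier results of these data known, and the pathway, marker and early response lists support nothing on their own. Left out were 6 cells past both class limits, and 1 pathway gene is not reported here.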

Additional observations from a re-analysis of the deposited data

Results flagged for a closer look

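In several comparisons of a day with the quiescent library, 2 classes moved in opposite directions, each with an interval that left out equality. The differences between classes were not tested, since each group had 1 library. At day 1 the log2 ratio of Notch2 was 0.75 in tenocytes and -0.54 in the rest, but at 1500 UMIs a cell the share of tenocytes with a Notch2 UMI was 9.76% quiescent and 8.20% at day 1. For Notch3 it was 1.48 in the rest and -1.73 in mural cells at day 2, and 1.79 in the rest and -0.43 in mural cells at day 4. At day 4 the log2 ratio of Heyl was 2.31 in tenocytes, 1.89 in the rest and -0.75 in mural cells. The tenocyte value for Heyl rests on 5 quiescent UMIs. In tenocytes Notch3 went from 0 UMIs in quiescent cells to 19 at day 4. The day 4 level, 12.6 CPM, was 2.13-fold above the 5.93 CPM that 3 quiescent UMIs would give. This value leaves out the counting error of the 19 UMIs and is not a lower bound.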

How the results depend on the processing

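Across 14 alternative settings and the omission of each library, 176 counts of members called stayed within 1.5 times the main count and 12 did not, 43 of the log2 ratios of single genes moved beyond their interval and 650 did not, and no called log2 ratio changed sign in the rest over time or in mural cells against the rest. With TMM factors 1 member was lower at day 2 (Hes1) and 1 was lower in mural cells in all libraries (Notch2). With cells thinned to 1500 UMIs 1 was lower at day 1 and 1 at day 2 (Hes1), and 1 was higher at day 14 (Heyl). With no minimum, 5 were lower at day 1, and 1 was higher at day 2, 3 at day 4 and 2 at day 14. At 50 CPM 1 was lower at day 1 and 0 were higher at day 4. With a limit of 1.5-fold 1 was lower in mural cells (Notch2). A higher minimum leaves fewer genes tested; the other causes were not tested. Hes1 was called lower at all 4 days under each of the 14 settings, and Notch3 and Heyl higher in mural cells, as was Jag1 except with thinned cells, where it failed the minimum but stayed above 2-fold. With any 1 library left out 3 members were higher in mural cells and 0 lower, and 0 tenocyte calls arose. TMM moved the median log2 ratio of all genes at day 1 from -0.15 to 0.30 and DESeq2's factors to 0.06. The settings on rest cells with a Pdgfra UMI, on shared barcodes, on left-out libraries and on a share of Postn and Cthrc1 were chosen after seeing the data. No paired analysis was possible because each group had 1 library. Depth limits mural Notch1, Notch2, Hes1 and Hey1, which rest on 1 to 47 UMIs a library.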
